A study of Mus musculus with 18 samples.

Results

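P-TEFb is the kinase that releases paused RNA polymerase II into productive elongation, and 7 genes of P-TEFb and of the 7SK complex that holds it inactive were followed here. They were chosen by name, as the rows whose Ensembl mouse gene identifier carries the symbol Hexim1, Hexim2, Cdk9, Ccnt1, Ccnt2, Larp7 or Mepce, and they are 7 of the 43629 genes counted. AT3 is a mouse mammary carcinoma line that serves as a model of triple-negative breast cancer, and its RNA was measured by 3′ mRNA sequencing (QuantSeq), which reads the ends of transcripts, in 18 libraries. Cells received DMSO, 250 nM A-241 or 1000 nM A-485 for 1 h, followed by IFNγ at 1 ng/mL or its vehicle for 2 h, so that every culture was collected 3 h after the first addition. The 6 conditions DMSO, A-241, A-485, IFNγ, A-241 + IFNγ and A-485 + IFNγ have 3 libraries each. A-241 and A-485 are chemically distinct inhibitors of the catalytic lysine acetyltransferase domain of P300 and CBP, and their doses differ. All values come from 1 cell line. The study describes the triplicates as technical in its design text and as biological in the sample labels, so the spread between libraries may be technical.

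P-TEFb consists of the kinase CDK9 and a T-type cyclin, cyclin T1 or cyclin T2. CDK9 phosphorylates negative elongation factors and the tail of RNA polymerase II. A part of the P-TEFb of a cell is stored inactive on the 7SK RNA, where HEXIM1 or HEXIM2 inhibits the kinase, LARP7 binds the end of the RNA and MEPCE caps it. BET proteins read acetylated histones, and HEXIM1 is widely used as a marker of the response to BET inhibitors.

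The libraries held between 3417167 and 7856830 counts. DMSO replicate 3 and IFNγ replicate 2 stand apart: the RNA of Gm42418 took 20.1% and 23.0% of their counts, against 16.2% or less elsewhere, and their profiles deviated most from those of their own condition. Values of the members and of the other genes described are therefore also given from a fit that leaves both out. The line expressed the epithelial markers Cdh1, Epcam, Krt8 and Krt18 in every library, whereas Krt19 had at most 1 count. Of the endothelial markers, Cdh5 had 0 counts in all libraries and Pecam1 between 2 and 20. The fibroblast markers Col1a1, Pdgfra and Pdgfrb had at most 7, 14 and 14 counts. The leukocyte marker Cd3e had at most 6. The 3 basal and mesenchymal markers Krt5, Krt14 and Vim were all expressed, Krt14 with the highest median level. Their summed level was lower with either inhibitor than without, on both backgrounds. Hexim1 was higher with the inhibitors except in A-485 + IFNγ, where it stayed within the range of IFNγ alone. The summed level lay between 697.1 and 1321 CPM (counts per 1000000, scaled by TMM factors, which equalise the composition of libraries) in DMSO, 338.0 and 424.2 in A-241 and 463.3 and 580.2 in A-485. With IFNγ it lay between 652.9 and 1080 CPM, with A-241 + IFNγ between 427.9 and 469.4, and with A-485 + IFNγ between 474.4 and 510.8. The summed leukocyte markers Ptprc, Cd3e and Lyz2 varied within conditions, up to 38.7 CPM in A-485, 28.0 in A-241 + IFNγ, 25.6 in IFNγ, 18.6 in A-485 + IFNγ, 14.9 in DMSO and 11.0 in A-241. Ptprc reached 73 counts in A-485 replicate 3, and Lyz2 reached 178 counts in A-485 replicate 1, 126 in A-241 + IFNγ replicate 3 and 76 in IFNγ replicate 2. The part of these markers' cells or states in the results was not tested.

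Hexim1 (ENSMUSG00000048878) lies on chromosome 11 of GRCm38 at 103116231-103119725 on the plus strand, in 1 exon that no other annotated gene shares. Since Hexim1 was the member that changed, the sequence before its annotated start is shown, from the RefSeq promoter table for GRCm38.p6, at chr11:103116075-103116230 on the plus strand. Capitals mark TATATAA, a match to the TATA box, which begins 29 bases before the start of the gene model:
Hexim1: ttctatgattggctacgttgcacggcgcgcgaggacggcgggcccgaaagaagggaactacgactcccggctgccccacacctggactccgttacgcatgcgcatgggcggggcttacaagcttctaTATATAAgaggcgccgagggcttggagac

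Windows from 250 bases before to 50 bases after the RefSeq start were in the table for 5 of the 7 members, and not for Hexim2 and Mepce. The RefSeq start may differ from the start of the gene model, from which the TATATAA of Hexim1 was placed above. TATATAA, searched on both strands, was found in the window of Hexim1 and not in those of Cdk9, Ccnt1, Ccnt2 and Larp7, and 3.25% of all 32817 windows held it. The shorter TATAA, which lies within it, was likewise found in the window of Hexim1 only among the 5, and in 24.9% of all windows. CCAAT was found in 4 of the 5 windows, all but that of Ccnt1, and in 37.4% of all windows. These are matches of letters and not sites of binding.

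Hexim1 was the member that responded to the P300/CBP inhibitors. In DMSO its level was 21.1, 22.3 and 22.1 CPM in the 3 libraries. In A-241 it was 63.9, 70.3 and 68.9 CPM, so that the lowest library with A-241 lay far above the highest with DMSO. The mean rose from 21.8 ± 0.644 to 67.7 ± 3.34 CPM (SD, n = 3), a fitted fold of 3.10 (95% CI 2.53 to 3.81), or 1.63 ± 0.14 on the log2 scale (SE), with an adjusted p of 1.63e-06 by edgeR's quasi-likelihood test with Benjamini-Hochberg adjustment. Hexim1 was 1 of the 6 members tested that passed the threshold of an adjusted p under 0.01 in this comparison, in which 4.35% of all 11964 genes tested did. It ranked 21 of these genes by p value. The log2 fold change was 1.60 without both libraries that stand apart, and the call held. In bulk libraries, more RNA per cell and more cells that express a gene cannot be told apart.

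In A-485 the level of Hexim1 was 38.7, 40.1 and 38.1 CPM, above all DMSO libraries and below all A-241 libraries. The mean of 38.9 ± 1.02 CPM (SD, n = 3) was 1.78-fold that in DMSO (95% CI 1.46 to 2.19), a log2 fold change of 0.84 ± 0.14 (SE) with an adjusted p of 0.00406. Again 1 of the 6 members tested passed the threshold, against 0.660% of all genes. This call rests on all libraries: without any 1 of the 6 libraries compared, the adjusted p was between 0.0102 and 0.0350, while the log2 fold change stayed between 0.78 and 0.86. It was 0.81 without both libraries that stand apart, a call that held (adjusted p 0.00101). The comparisons of A-241 and of A-485 share their DMSO libraries.

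**Figure D1:**
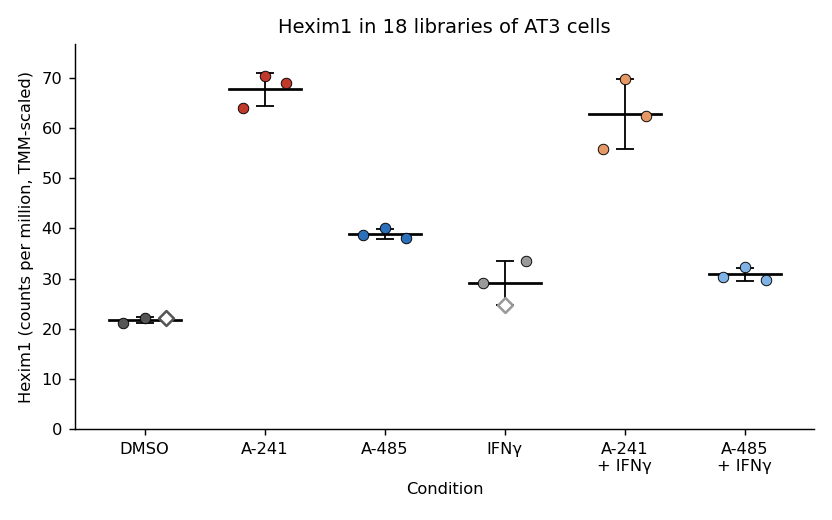
TMM-scaled CPM of Hexim1 (vertical axis, linear, from 0) in each of the 18 libraries by condition (horizontal axis). Points are libraries, horizontal lines are means and bars are ± 1 SD of 3 libraries, and open diamonds are DMSO replicate 3 and IFNγ replicate 2. The 6 libraries with A-241 sit between 55.9 and 70.3 CPM, above all other libraries, of which the highest is A-485 replicate 2 at 40.1 CPM.

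With IFNγ the response to A-241 was again seen. Hexim1 was at 29.1, 24.7 and 33.6 CPM in IFNγ and at 55.9, 69.8 and 62.5 CPM in A-241 + IFNγ, with no overlap. The fitted fold was 2.15 (95% CI 1.76 to 2.62), a log2 fold change of 1.10 ± 0.14 (SE) with an adjusted p of 6.39e-05, and 1 of the 6 members passed the threshold, against 4.09% of all genes. When only the libraries of these groups were fitted, the adjusted p was 0.0439. Leaving out both libraries that stand apart gave 1.00, and the call held (adjusted p 2.03e-05).

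In A-485 + IFNγ, Hexim1 was at 30.4, 32.4 and 29.8 CPM, within the range of IFNγ alone. The fitted fold was 1.06 (95% CI 0.864 to 1.29), or 0.08 ± 0.14 on the log2 scale, with an adjusted p of 0.823, and without IFNγ replicate 2 the value was -0.03. None of the 6 members tested passed the threshold, against 0.552% of all genes. Of the 6, 1, Mepce, had an unadjusted p under 0.05 by edgeR, as did 1760 of all 11964 genes tested.

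Averaged over both backgrounds, without and with IFNγ, A-241 raised Hexim1 2.58-fold (95% CI 2.24 to 2.98; log2 fold change 1.37 ± 0.10, adjusted p 8.54e-08), the only call among the 6 members, against 10.4% of all genes. An exact two-sided permutation test of Hexim1 alone, with labels exchanged among libraries without IFNγ and among libraries with IFNγ, gave p = 0.005 for A-241, the smallest that 400 arrangements can give, at a difference of 1.36 in log2 CPM. For A-485 the averaged log2 fold change was 0.46 ± 0.10 (adjusted p 0.00936), again the only member called, against 2.59% of all genes. The exact permutation test gave p = 0.03 for A-485 at a difference of 0.46. Both permutation p values are for Hexim1 alone and unadjusted, and the tests were chosen with earlier results of these data known. Without IFNγ replicate 2 the permutation p for A-485 was 0.06, and the edgeR call held in 1 of 12 fits that each left out 1 library.

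At the doses used, A-241 gave higher Hexim1 than A-485. The log2 difference was 0.80 ± 0.13 without IFNγ (adjusted p 0.00713), 1.02 ± 0.14 with IFNγ (adjusted p 0.00101) and 0.91 ± 0.10 averaged over both (adjusted p 2.94e-05). In each case Hexim1 was the only one of the 6 members past the threshold, against 0.368%, 0.518% and 1.25% of all genes. The call without IFNγ was lost when any 1 of its 6 libraries was left out, with adjusted p between 0.0276 and 0.0540. The dose of A-485 was higher than that of A-241, so these values compare the treatments and not the compounds at matched dose.

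No response of Hexim1 to IFNγ itself passed the threshold. IFNγ alone gave a log2 fold change of 0.42 ± 0.14 against DMSO (adjusted p 0.226), although its lowest library, 24.7 CPM, lay above the highest with DMSO. Without both libraries that stand apart it was 0.51 ± 0.15 (adjusted p 0.0579). In the presence of A-241 the log2 fold change with IFNγ was -0.11 ± 0.13, and in the presence of A-485 it was -0.34 ± 0.14 (adjusted p 0.627), where the libraries did not overlap. Averaged over DMSO, A-241 and A-485 the value was -0.01 ± 0.08. No member passed the threshold in these 4 comparisons, against 1.30%, 0.192%, 0.802% and 2.01% of all genes. At an unadjusted p under 0.05 by edgeR there were 2, 0, 1 and 0 of the 6 members. Of all 11964 genes tested there were 1016, 447, 698 and 1148.

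The dependence of the inhibitor effect on IFNγ was tested directly. The effect of A-485 on Hexim1 with IFNγ minus that without was -0.76 (95% CI -1.17 to -0.35) on the log2 scale, with an unadjusted p of 0.00128 and an adjusted p of 0.477 by edgeR, so the difference did not pass the threshold. For A-241 it was -0.53 (95% CI -0.94 to -0.12), with an unadjusted p of 0.0138 and an adjusted p near 1. No gene of 11964 was called for A-485 (0%, with 499 at an unadjusted p under 0.05), and 0.0334% were called for A-241. For A-485, DESeq2 called 8 genes, limma-voom 0 and the fit with 2 surrogate variables 25. For A-241 these numbers were 26, 2 and 80. Hexim1 was called in 0 of 11 such alternatives for either inhibitor.

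In order of its mean level Hexim1 ran from DMSO (21.8 CPM) through IFNγ (29.1), A-485 + IFNγ (30.9), A-485 (38.9) and A-241 + IFNγ (62.7) to A-241 (67.7). Of the neighbours in this order, DMSO and IFNγ, IFNγ and A-485 + IFNγ, A-485 + IFNγ and A-485, and A-241 + IFNγ and A-241 did not differ beyond the test's threshold. The step from A-485 to A-241 + IFNγ was not among the tests, and its libraries did not overlap.

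The HEXIM1 paralogue gene Hexim2 lies next to Hexim1, at 103132429-103139876 of chromosome 11 on the same strand. It had between 0 and 13 counts in a library, with 106 counts in all 18. DMSO held 0, 13 and 1 counts, A-241 held 9, 5 and 5, and A-485 held 5, 4 and 2. IFNγ held 10, 2 and 9, A-241 + IFNγ held 5, 10 and 7, and A-485 + IFNγ held 7, 5 and 7. These counts, near the floor of 3, were too few to pass the filter on low counts, and no change of Hexim2 was detectable at this depth. In a fit with no filter the adjusted p of Hexim2 was 0.784 or more in all 15 comparisons.

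Cdk9, which encodes the kinase subunit (chromosome 2, 32705784-32713076, minus strand), had its lowest levels in both libraries that stand apart. In DMSO it was at 66.4, 99.9 and 25.6 CPM, and in IFNγ at 120.2, 26.2 and 99.7 CPM, where the low values are those of DMSO replicate 3 and IFNγ replicate 2. In the 12 libraries with an inhibitor it ranged from 66.3 to 97.7 CPM, within the range of DMSO and IFNγ. The log2 fold change averaged over IFNγ was 0.19 (95% CI -0.46 to 0.85) for A-241 and 0.20 (95% CI -0.46 to 0.86) for A-485, neither of which passed the threshold. Without both libraries these values became -0.22 and -0.22, also not past the threshold. In that fit Cdk9 changed by -0.43 with A-241 (adjusted p 0.142) and -0.44 with A-485 (adjusted p 0.146) in the presence of IFNγ. In its absence the values were -0.005 and 0.009. The intervals from all libraries are wide, and a change of Cdk9 within them was not detectable.

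Ccnt2, which encodes cyclin T2 (chromosome 1, 127774164-127808061, plus strand), followed the same pattern of libraries. It was at 36.5, 33.8 and 7.26 CPM in DMSO and at 26.8, 11.6 and 30.4 CPM in IFNγ, again lowest in DMSO replicate 3 and IFNγ replicate 2. In A-241 it was at 52.4, 31.6 and 34.1 CPM, and in A-485 at 24.4, 22.7 and 31.1 CPM. The averaged log2 fold change was 0.59 (95% CI -0.05 to 1.22, adjusted p 0.181) for A-241 and 0.20 (95% CI -0.44 to 0.84) for A-485. Without both libraries they were 0.21 and -0.18. The correlation of Cdk9 and Ccnt2 over the 18 libraries was r = 0.84, and over the 16 other libraries 0.14, a description with no test.

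Ccnt1, which encodes cyclin T1 (chromosome 15, 98538689-98570923, minus strand), had the narrowest range of the members tested, between 36.0 and 49.3 CPM over all libraries. In DMSO it was at 47.9, 36.0 and 45.6 CPM, and in IFNγ at 37.0, 37.2 and 37.2 CPM. A-241 + IFNγ stood at 47.9, 45.7 and 49.3 CPM, above all IFNγ libraries, with a log2 fold change of 0.36 ± 0.13 and an adjusted p of 0.124. Averaged over IFNγ, the log2 fold changes were 0.21 (95% CI 0.01 to 0.40, adjusted p 0.133) for A-241 and 0.11 (95% CI -0.09 to 0.31) for A-485, and 0.21 and 0.11 without both libraries that stand apart. Ccnt1 shares 695 exon bases with the antisense gene 9330020H09Rik, which had 97 counts in all libraries against 3934 for Ccnt1, and without strand their reads cannot be told apart.

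Larp7, whose product protects the 7SK RNA (chromosome 3, 127536714-127553349, minus strand), lay between 116.6 and 163.8 CPM. It was at 118.3, 129.9 and 127.2 CPM in DMSO, at 142.2, 157.4 and 145.2 in A-241 and at 163.8, 152.1 and 147.8 in A-485. Neither inhibitor overlapped with DMSO, a description with no test, and how many of all genes separate in this way was not counted. The log2 fold changes against DMSO were 0.24 ± 0.12 for A-241 (adjusted p 0.246) and 0.31 ± 0.12 for A-485 (adjusted p 0.303). With IFNγ the values were 0.09 ± 0.12 and 0.10 ± 0.12. Larp7 did not pass the threshold, except when 2 surrogate variables were added to the fit, where the averaged effects were 0.23 for A-241 (adjusted p 0.00773) and 0.27 for A-485 (adjusted p 0.00594). The averaged values without both libraries that stand apart were 0.19 and 0.23 (adjusted p 0.0876 and 0.0748).

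Mepce, which encodes the 7SK capping enzyme (chromosome 5, 137781906-137787655, minus strand), lay between 21.3 and 38.6 CPM. It was at 35.8, 26.2 and 29.4 CPM in DMSO, at 26.3, 21.7 and 21.3 CPM in IFNγ and at 28.3, 34.6 and 38.6 CPM in A-485 + IFNγ. The log2 fold change of A-485 + IFNγ against IFNγ was 0.54 ± 0.18, with an adjusted p of 0.155, and the libraries did not overlap, a description with no test. Averaged over IFNγ it was 0.37 (95% CI 0.10 to 0.64, adjusted p 0.102) for A-485 and 0.03 (95% CI -0.24 to 0.30) for A-241. Without both libraries that stand apart these were 0.32 (adjusted p 0.132) and -0.03.

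**Figure D2:**
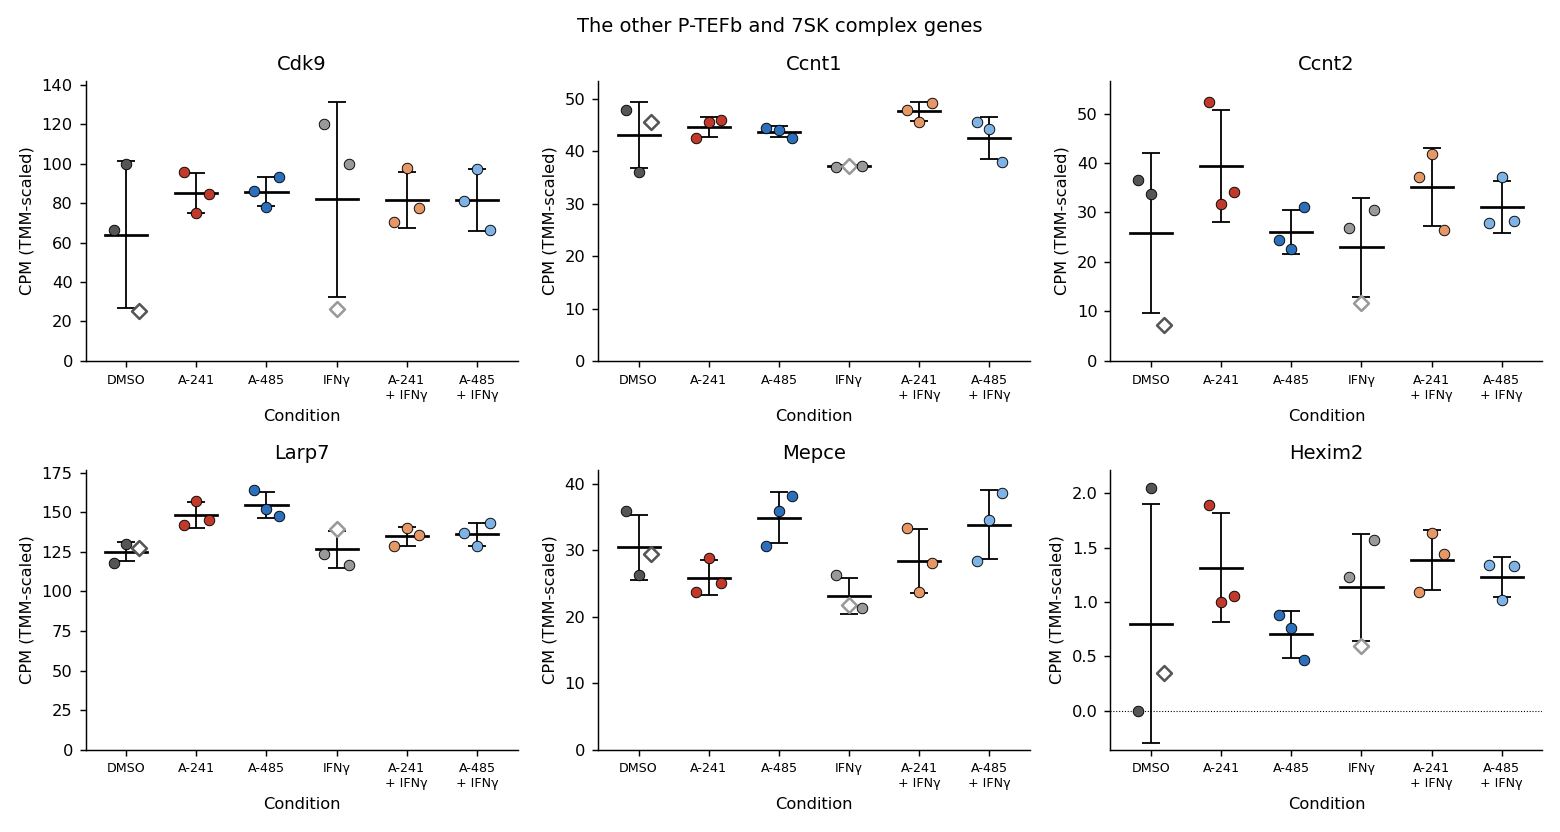
TMM-scaled CPM (vertical axes, linear, each with its own scale) of Cdk9, Ccnt1, Ccnt2, Larp7, Mepce and Hexim2 by condition. Points are libraries, lines are means, bars are ± 1 SD of 3 libraries, and open diamonds are DMSO replicate 3 and IFNγ replicate 2, which hold the lowest values of Cdk9 (25.6 and 26.2 CPM) and of Ccnt2 (7.26 and 11.6 CPM).

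**Figure D3:**
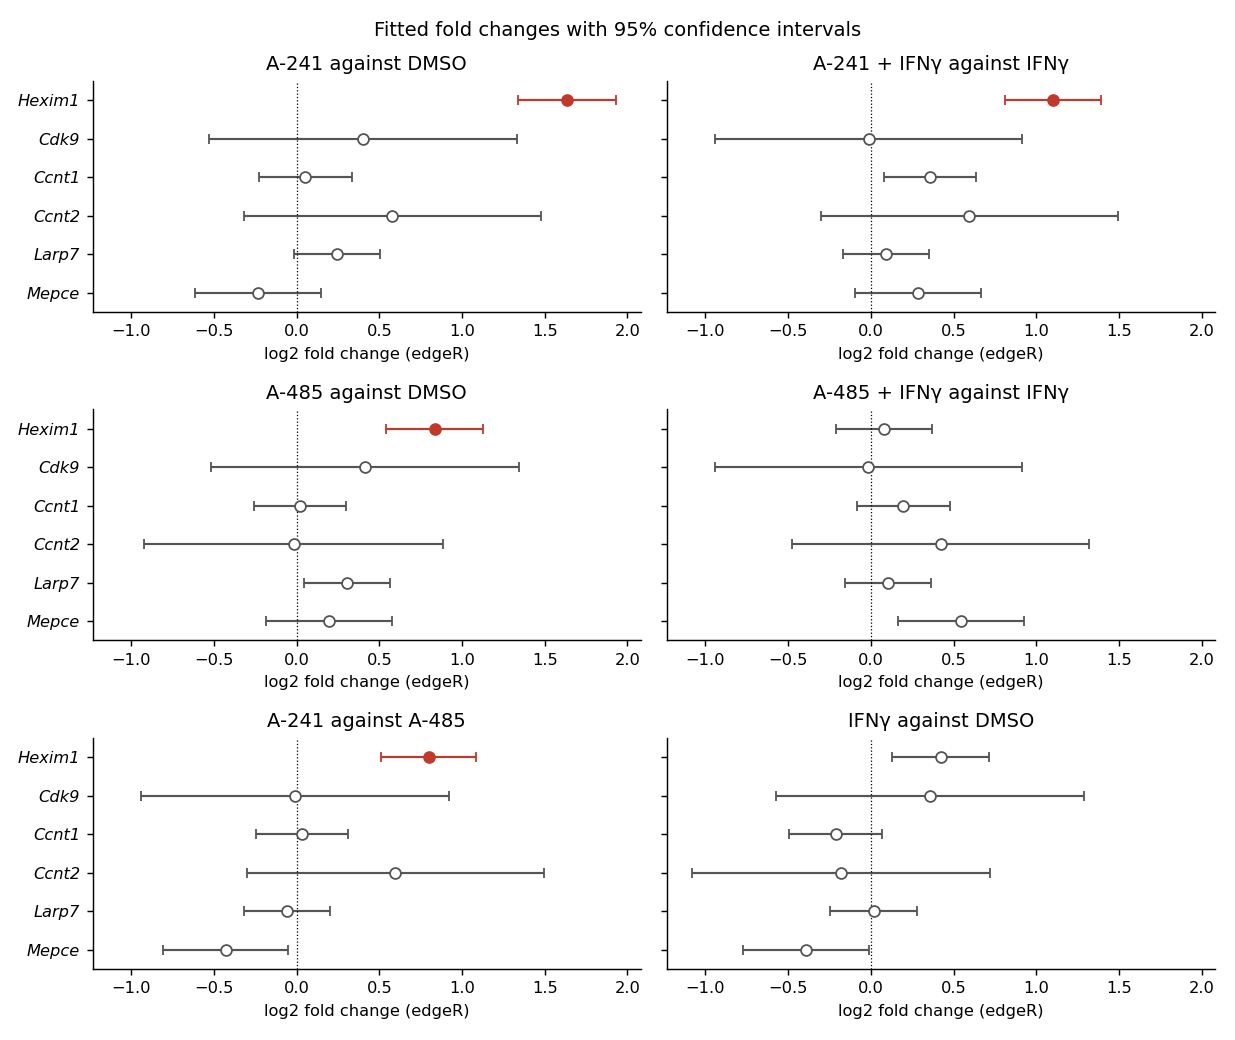
Log2 fold changes from edgeR (horizontal axes) with 95% confidence intervals for the 6 members tested, in 6 comparisons. Filled red points passed an adjusted p under 0.01, which Hexim1 alone did, in 4 of the 6 panels; the intervals of Cdk9 and Ccnt2 are the widest.

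Counts of different genes within a library share its depth and its scaling, so the ratio of Hexim1 to a partner needs no normalization. For each Larp7 count there were 0.174 ± 0.00350 Hexim1 counts in DMSO, 0.457 ± 0.0154 in A-241 and 0.252 ± 0.0145 in A-485 (SD, n = 3). In IFNγ the ratio was 0.234 ± 0.0553, in A-241 + IFNγ 0.464 ± 0.0316 and in A-485 + IFNγ 0.228 ± 0.0222. The ratio to Ccnt1 ran from 0.515 ± 0.0926 in DMSO to 1.51 ± 0.0215 in A-241, with 0.891 ± 0.0204 in A-485. The libraries with A-241 lay above all others in both ratios. Against the summed counts of Cdk9, Ccnt1 and Ccnt2 the ratio was 0.184 ± 0.0847 in DMSO and 0.405 ± 0.0638 in A-241. DMSO replicate 3, in which Cdk9 and Ccnt2 were low, had the highest of the DMSO values, 0.282, below the lowest with A-241, 0.336. The ratios are given as a description, with no test.

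**Figure D4:**
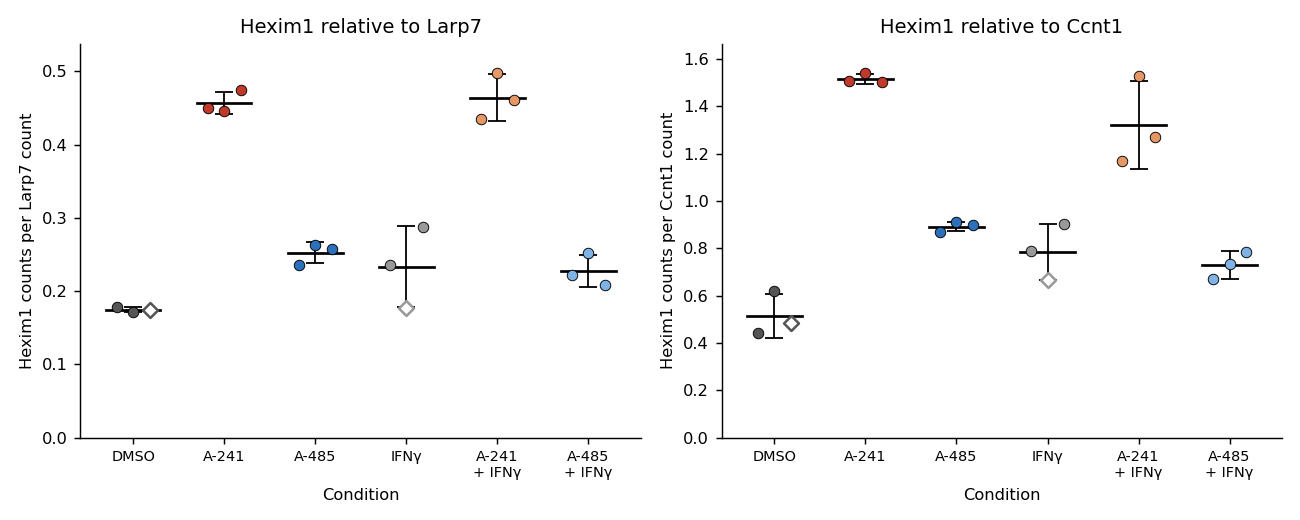
Hexim1 counts per Larp7 count (left) and per Ccnt1 count (right) in each library, on linear axes from 0, by condition. Points are libraries, lines are means, bars are ± 1 SD of 3 libraries and open diamonds are DMSO replicate 3 and IFNγ replicate 2; the 6 libraries with A-241 lie above the other 12 in both panels.

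Beyond the 7 members, 42 genes of transcription elongation were listed by function, of which 41 were tested. They comprise other 7SK partners, the BET proteins, the super and little elongation complexes, NELF, DSIF with SPT6, the PAF1 complex and other transcription kinases. Averaged over IFNγ, A-241 raised 2 of the 41, Brd2 and Leo1, and lowered none, against 10.4% of all genes called in either direction. Their median log2 fold change was 0.07, and that of all genes tested 0.00147. A-485 called none of the 41, against 2.59% of all genes. For A-485, 8 of the 41 had an unadjusted p under 0.05 by edgeR, as did 2507 of all 11964 genes tested. For A-241 these numbers were 10 of the 41 and 4029 of all genes. With IFNγ, A-241 raised 1 of the 41, Brd2, against IFNγ alone, where 4.09% of all genes were called. No gene of the list was called in the other 12 comparisons, in which between 0% and 4.35% of all genes were.

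Brd2, which encodes a BET protein (chromosome 17, 34112023-34122634, minus strand), was at 291.9, 285.9 and 143.4 CPM in DMSO and at 598.0, 395.0 and 439.3 CPM in A-241. In IFNγ it was at 332.2, 183.5 and 271.6 CPM, and in A-241 + IFNγ at 664.4, 681.0 and 508.3 CPM. The groups did not overlap on either background, and the low values of DMSO and IFNγ were again those of the 2 libraries that stand apart. The averaged log2 fold change with A-241 was 1.11 ± 0.20 (adjusted p 0.000741), and it kept its call in all alternatives run, with 0.86 without both of these libraries. With IFNγ it was 1.23 ± 0.28 (adjusted p 0.00996), a call lost without any 1 of the 6 libraries, at values between 1.04 and 1.44 and adjusted p between 0.0107 and 0.0445, and in 5 of 11 other alternatives, at adjusted p up to 0.0783. Without both libraries that stand apart it was 1.03 and called (adjusted p 0.00117). For A-485 the averaged value was 0.37 ± 0.19 (adjusted p 0.293), and 0.11 without both. Brd2 shares 360 exon bases with H2-DMa on the opposite strand, which had 35 counts in all libraries against 34923 for Brd2. It also shares 405 exon bases with the antisense gene CR974462.3, which is not among the genes counted. Without strand, reads of these genes in the shared bases cannot be told from those of Brd2.

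Leo1, which encodes a subunit of the PAF1 complex (chromosome 9, 75441524-75466432, plus strand), was at 21.1, 24.5 and 28.0 CPM in DMSO and at 34.1, 33.0 and 30.3 CPM in A-241. In IFNγ it was at 20.6, 24.4 and 19.6 CPM and in A-241 + IFNγ at 31.3, 33.4 and 28.0 CPM. The averaged log2 fold change with A-241 was 0.47 ± 0.11 (adjusted p 0.00544), which lay between 0.42 and 0.52 when 1 library was left out. The call was lost in 9 of these 12 fits, with adjusted p up to 0.0159, and in 3 of 11 other alternatives, with adjusted p up to 0.0258. Without both libraries that stand apart it was 0.54 and called (adjusted p 0.000594).

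The gene of the 7SK RNA itself, Rn7sk, was at 58.2, 36.2 and 269.5 CPM in DMSO and at 31.3, 362.0 and 79.7 CPM in IFNγ, with the high values in DMSO replicate 3 and IFNγ replicate 2. In the 12 libraries with an inhibitor it ranged from 37.2 to 93.8 CPM. 7SK RNA has no poly(A) tail in its usual form, whereas QuantSeq primes on poly(A), and how these counts relate to the amount of 7SK was not tested. Rn7sk did not pass the threshold in any comparison. The averaged log2 fold change was -1.01 for A-241 and -1.28 for A-485 with all libraries, and 0.40 and 0.14 without both libraries that stand apart.

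**Figure D5:**
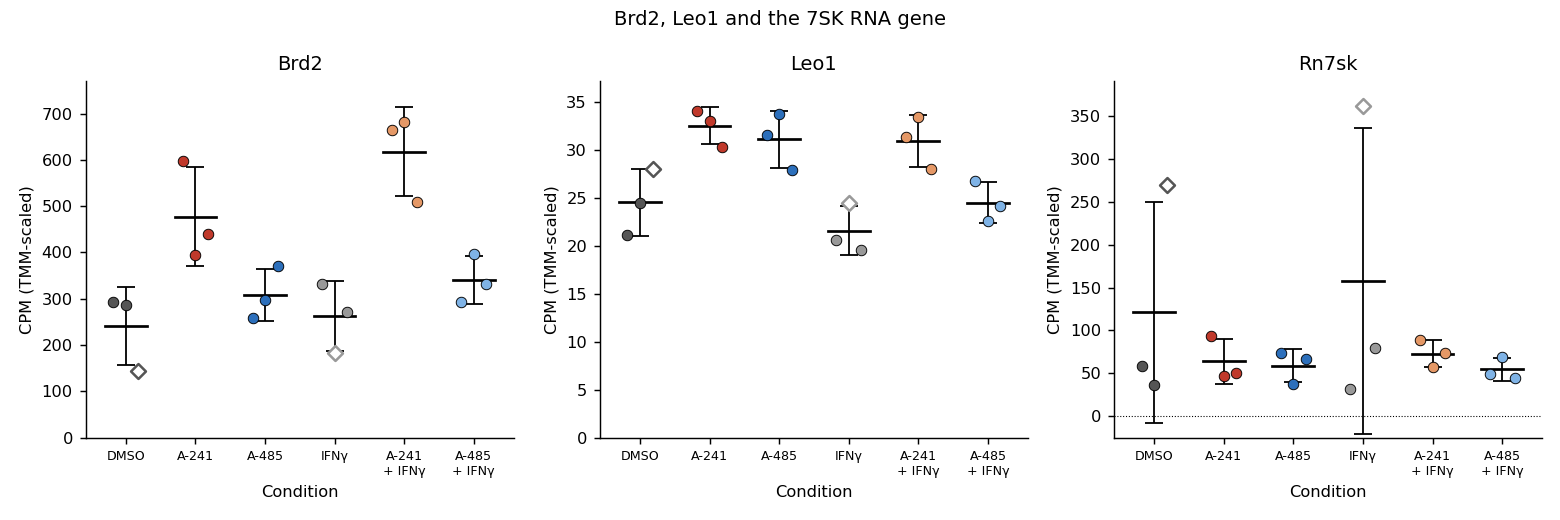
TMM-scaled CPM (vertical axes, linear, each with its own scale) of Brd2, Leo1 and Rn7sk by condition. Points are libraries, lines are means, bars are ± 1 SD of 3 libraries, dotted lines mark 0 and open diamonds are DMSO replicate 3 and IFNγ replicate 2; Brd2 is highest in A-241 + IFNγ (508.3 to 681.0 CPM), and Rn7sk is high in the open diamonds only (269.5 and 362.0 CPM).

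The genes whose level was most like that of Hexim1 were sought among 7409 genes with a mean of at least 50 counts per library. The 5 highest Pearson correlations of log2 CPM over the 18 libraries were those of C2cd2l (r = 0.94), Akirin1 (0.89), Cdc6 (0.89), Usp37 (0.89) and Slf1 (0.88). Cdc6, which loads the replicative helicase on origins of replication, had a mean level of 43.3 ± 3.02 CPM in DMSO, 87.3 ± 9.29 in A-241 and 55.2 ± 6.28 in A-485 (SD, n = 3). C2cd2l had a mean of 8.91 ± 1.44 CPM in DMSO and 25.5 ± 2.58 CPM in A-241. The 3 lowest correlations were those of Trps1 (r = -0.96), Klf3 (-0.95) and Runx1 (-0.95), which encode transcription factors. Trps1 had a mean of 227.1 ± 18.6 CPM in DMSO, 117.4 ± 8.42 in A-485 and 40.9 ± 3.36 in A-241, the reverse order of Hexim1 in these conditions. With IFNγ it had 193.9 ± 10.5 CPM, with A-485 + IFNγ 115.7 ± 5.49 and with A-241 + IFNγ 45.7 ± 4.84. Trps1 was thus lower in A-485 + IFNγ than in IFNγ, where Hexim1 was nearly level. The correlations share the libraries and their conditions and are a description, with no test.

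Correlations with Hexim1 are also given for the 5 other members tested. They are not to be measured against the values above, which were picked as the extremes of 7409 genes. The correlation with Hexim1 over 18 libraries was 0.49 for Ccnt2, 0.48 for Larp7, 0.48 for Ccnt1, 0.37 for Cdk9 and -0.18 for Mepce. Over the 16 libraries without those that stand apart it was 0.51 for Ccnt1, 0.48 for Larp7, 0.29 for Ccnt2, -0.07 for Cdk9 and -0.34 for Mepce.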

How the data were processed

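Raw counts per gene were deposited for 18 libraries. The authors trimmed the reads with cutadapt 1.7, aligned them to GRCm38 with HISAT2 2.1.0 and counted them on exons with featureCounts, each read counted for every gene it touched and with no strand option given. The annotation release is not given in the sources used here. Identifiers were matched to GENCODE vM21 (42548 of 43629, 97.5%), from which coordinates and shared exon bases come.

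Genes were kept by filterByExpr, which left 11964. After TMM scaling, a single model with the condition as factor took in every library (edgeR 4.0.16, R 4.3.3). The 15 comparisons were tested with glmQLFTest, p values were adjusted over all genes tested by the Benjamini-Hochberg method, and the threshold for a call was 0.01. CPM are counts per 1000000 of the TMM-scaled total, log2 CPM has a prior count of 2, and 3 counts correspond to between 0.382 and 0.878 CPM of the unscaled total. Intervals are at 95%. Where libraries of compared conditions are said not to overlap, this describes 3 libraries of each. The share of all genes that separate in this way was not counted. Correlations, ratios and the exact permutation tests were computed in Python 3.11.15. The fit was tested on simulated data. Libraries of a condition differed by more than counting noise in all 18 pairs (chi-square per degree of freedom 2.09 or more).

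The members, the list of 42 elongation genes and the tests were chosen with earlier results of these data known. Named were all members, every listed gene past the threshold in any comparison, and the 5 genes most like and 3 least like Hexim1. Rn7sk is named in addition, after its values were seen. Some items are not reported here. Alternatives were RLE, upper-quartile or no scaling factors, DESeq2 1.42.0, limma-voom (limma 3.58.1), no filter or at least 10 counts in every library, the replicate block, fits of the compared groups only, 2 surrogate variables (sva 3.50.0), a threshold of 0.05, and libraries left out.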

Additional observations from a re-analysis of the deposited data

How the results depend on the processing

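The calls of Hexim1 for A-241 against DMSO, for A-241 averaged over IFNγ, and for A-241 against A-485 with IFNγ and averaged, held under all alternatives and with each library left out. The other calls did not hold throughout, at nearly the same fold change, and the cause was not tested. A-485 against DMSO was not called with total counts (0.92), no filter (0.86), the replicate block (0.84) or only the groups compared (0.83), and had 0.78 to 0.86 with 1 library left out. A-241 against A-485 was not called with total counts (0.82), no filter (0.80) or the block (0.80), and had 0.76 to 0.84 with 1 library left out. A-241 + IFNγ against IFNγ was not called in the groups alone (1.10). A-485 averaged was not called with RLE factors (0.44), total counts (0.55), no filter (0.48), at least 10 counts in every library (0.44), the block (0.46) or the groups alone (0.46), and had 0.39 to 0.52 with libraries left out, where both libraries rich in Gm42418 left out gave 0.39. Total counts moved the median of all genes by up to 0.13 on the log2 scale.

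The number of members called fell from 1 to 0 in those same fits, between 0 and 1 with libraries left out, and rose to 2 with 2 surrogate variables for A-485 against DMSO, A-241 averaged and A-485 averaged, where Larp7 joined, and for A-241 against A-485 averaged, where Ccnt2 joined. An adjusted p under 0.05 changed no count of members. With libraries left out, A-485 + IFNγ against IFNγ ranged from -0.033 to 0.19 and IFNγ averaged from -0.045 to 0.034 for Hexim1, and the permutation difference for A-485 from 0.40 to 0.51.

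Values of other members that turned sign, none of them called, were Cdk9 for IFNγ averaged (-0.072), Ccnt2 for A-485 averaged (-0.13) and Mepce for A-241 averaged (-0.067) with 2 surrogate variables, and Ccnt2 for IFNγ averaged with limma-voom (0.025). With libraries left out, Cdk9 ranged from -0.22 to 0.43 for A-241, from -0.22 to 0.44 for A-485 and from -0.051 to 0.23 for IFNγ, Ccnt2 from -0.18 to 0.35 for A-485 and from -0.16 to 0.075 for IFNγ, and Mepce from -0.037 to 0.10 for A-241.

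Replicate numbers did not pair the libraries: of 45 pairs with the same number, 15 had a correlation of deviations above 0.1 (median -0.018), and 5 of 18 libraries were closest to their own number. The alternatives for Brd2 and Leo1 were chosen after seeing the data: Brd2 with A-241 + IFNγ lost its call in 5 of 11, and Leo1 with A-241 averaged in 3 of 11, beside those with 1 library left out. The depth limits Hexim2, at 13 counts or fewer.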
